A study of Mus musculus with 6 samples.

Results

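Bone morphogenetic protein (BMP) genes were followed here in 3 kinds of cultured mouse cells: 9 named genes out of 18305 in the tables, found by their NCBI gene numbers. They are the ligand genes Bmp2, Bmp4 and Gdf10, the antagonist genes Grem1 and Bmper, the targets Id1, Id2 and Id3, and the inhibitory target Smad6. All 9 were in the tables and all 9 passed the filter on low counts, although Gdf10 and Grem1 had almost no reads in one of the groups. CiLC are embryonic fibroblasts of passages 3 to 5 that had been given small molecules, which the labels do not name, starting 24 hours after seeding. LC are Leydig cells from testis, at passages 0 to 1, and MEF are the embryonic fibroblasts of passages 3 to 5 without the small molecules, from embryos of 12.5 or 13.5 days. All cells came from KM mice and the labels name no altered allele. Each group had 2 RNA sequencing libraries, and the study set the groups side by side to ask how far CiLC resemble Leydig cells in gene expression.

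BMPs are secreted ligands of the TGF-beta superfamily. They bind pairs of type I and type II receptor kinases, which phosphorylate SMAD1, SMAD5 and SMAD9, and these enter the nucleus with SMAD4. Secreted antagonists bind the ligands outside the cell, while the Id genes and Smad6 are among the genes that the signal switches on. Id proteins hold a helix-loop-helix but no DNA-binding basic region, and they tie up the E proteins that other helix-loop-helix factors need as partners. Smad6 encodes an inhibitory SMAD that feeds back on the receptors. In the mouse embryo BMP4 is required for the primordial germ cells to form.

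Promoters are shown for the genes whose windows held a GGCGCC or a GTCTAGAC, with that of Id3 for comparison with Id2, as their levels moved the same way. RefSeq windows of 300 bases were matched by gene number for 7 of the 9 genes, on the assembly GRCm38.p6, which is not the build of the counts. Capitals mark a GGCGCC or a GTCTAGAC, palindromes known as BMP SMAD and SMAD sequences, and each run is given 5′ to 3′ in the direction of the gene. The windows are chr14:33923337-33923636 on the plus strand for Gdf10, chr2:113758599-113758898 on the minus strand for Grem1, chr12:25096043-25096342 on the minus strand for Id2, chr4:136143572-136143871 on the plus strand for Id3 and chr9:64022010-64022309 on the minus strand for Smad6.
Gdf10: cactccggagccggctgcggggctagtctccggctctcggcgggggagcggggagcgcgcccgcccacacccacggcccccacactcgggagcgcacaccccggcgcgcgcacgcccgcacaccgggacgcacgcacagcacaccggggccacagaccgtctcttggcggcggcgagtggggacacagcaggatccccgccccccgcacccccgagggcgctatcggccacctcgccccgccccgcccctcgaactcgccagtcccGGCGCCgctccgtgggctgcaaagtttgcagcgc
Grem1: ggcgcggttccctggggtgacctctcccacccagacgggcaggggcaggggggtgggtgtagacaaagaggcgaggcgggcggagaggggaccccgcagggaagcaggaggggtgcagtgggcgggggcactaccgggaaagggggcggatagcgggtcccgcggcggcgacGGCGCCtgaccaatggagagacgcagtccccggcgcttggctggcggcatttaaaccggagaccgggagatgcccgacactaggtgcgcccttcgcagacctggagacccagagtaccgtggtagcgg
Id2: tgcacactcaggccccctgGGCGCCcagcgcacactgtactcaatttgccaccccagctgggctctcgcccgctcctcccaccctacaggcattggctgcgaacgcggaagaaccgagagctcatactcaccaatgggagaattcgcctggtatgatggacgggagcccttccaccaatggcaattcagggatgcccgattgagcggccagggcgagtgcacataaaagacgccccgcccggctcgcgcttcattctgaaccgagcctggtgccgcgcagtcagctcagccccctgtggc
Id3: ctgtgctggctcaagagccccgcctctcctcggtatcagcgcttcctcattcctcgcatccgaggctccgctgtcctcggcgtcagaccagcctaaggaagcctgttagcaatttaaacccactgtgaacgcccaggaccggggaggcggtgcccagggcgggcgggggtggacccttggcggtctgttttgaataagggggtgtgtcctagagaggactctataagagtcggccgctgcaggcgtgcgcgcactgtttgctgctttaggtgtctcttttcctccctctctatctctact
Smad6: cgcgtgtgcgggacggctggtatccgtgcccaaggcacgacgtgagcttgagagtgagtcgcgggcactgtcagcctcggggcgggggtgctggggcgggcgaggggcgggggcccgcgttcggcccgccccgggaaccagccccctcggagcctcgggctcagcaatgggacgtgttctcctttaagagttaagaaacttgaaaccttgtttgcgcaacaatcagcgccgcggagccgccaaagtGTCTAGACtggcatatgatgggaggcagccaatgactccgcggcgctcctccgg

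Each motif was searched on both strands and reads the same on both. None of the matches below overlaps another. GGCGCC lay in the windows of Gdf10, Grem1 and Id2, which is 3 of 7, and in 11.96% of 27025 gene promoters of the same length. It is made of G and C only, and those windows held 77.3%, 70.7% and 63.3% G and C. Windows without it held 72.7% (Bmper), 66.3% (Smad6), 64.0% (Bmp4) and 60.0% (Id3). The 11.96% was not matched for G and C. Counted from the gene start, negative before it, the match began at 16 in Gdf10, at -78 in Grem1 and at -231 in Id2. GTCTAGAC was in 1 of 7 windows, that of Smad6, beginning at -4, and in 0.21% of all promoters. CACGTG was in 1 of 7, that of Bmp4, and in 7.24% of all promoters. The cyclic AMP response sequence TGACGTCA was in 0 of 7 and in 1.88% of all promoters. These matches are letters in a window and were not tested as binding sites. The Id3 window, shown for comparison with Id2, held no match to any of the motifs.

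The libraries held between 18.4 and 18.9 M estimated reads. Levels are given as CPM, reads of a gene per M reads of the scaled library, and group averages are means of 2 libraries. Nothing in the labels ties the libraries of a group to separate cultures or animals, so each p-value reflects spread among libraries that may be technical only. The 3 comparisons share libraries and are set side by side, not as independent evidence. Between CiLC and MEF, 51.6% of 14581 tested genes passed an edgeR adjusted p of 0.05. Between LC and MEF the share was 70.7%, and between CiLC and LC it was 70.6%. A call is therefore common in these data, and the sizes of the changes say more than the calls. Of the Leydig cell markers, LC held Star, Cyp11a1, Hsd3b1 and Nr5a1, and Insl3 at 6.03 and 7.06 CPM. The list summed to 1080 to 1110 CPM in LC, against 7.55 to 9.42 CPM in MEF. The receptor gene Lhcgr had 3 and 2 reads in LC, and Cyp17a1 had 0 and 1, so these defining markers were at or near 0 in the cells labelled Leydig cells. Macrophage markers were present in every library, at a summed 12000 to 12200 CPM over 12 genes in CiLC, 4730 to 5090 CPM in LC and 8680 to 8770 CPM in MEF. Pericyte and smooth muscle markers summed over 10 genes to 427 to 432 CPM in CiLC, 1360 CPM in both LC libraries and 2590 to 2660 CPM in MEF.

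**Figure D1:**
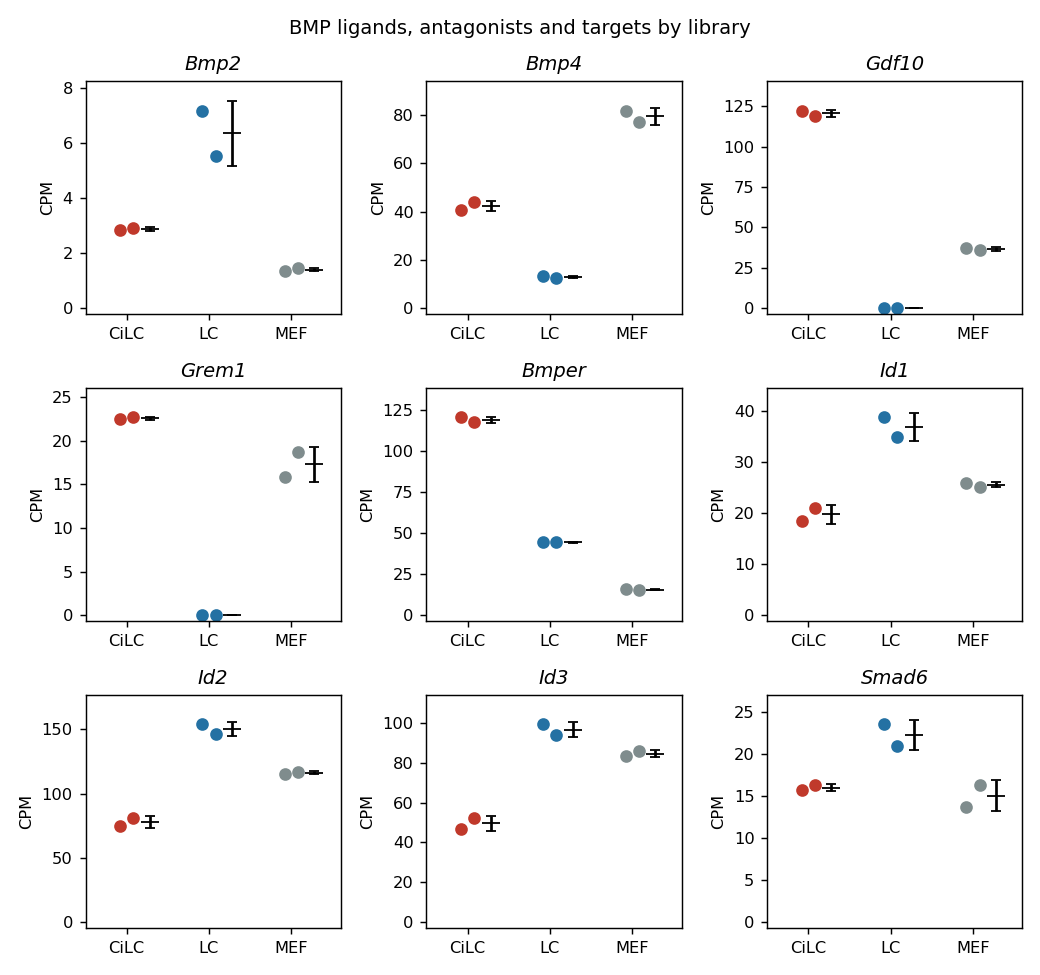
Level of each of the 9 genes in CPM (vertical axis, from 0, a separate scale for each gene) in the 6 libraries by group. Coloured points are libraries, and black bars are the group mean with its SD (n = 2). Gdf10 and Grem1 lie at or near 0 in LC, Bmper is highest in CiLC, and Id1, Id2 and Id3 are lowest in CiLC.

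Among the ligands, Bmp2 and Bmp4, which encode closely related ligands, ran in opposite orders across the groups, and Gdf10 had 1 read in both LC libraries together. Bmp2 (NCBI gene 12156) had 2.85 and 2.94 CPM in CiLC, 7.19 and 5.53 CPM in LC and 1.36 and 1.46 CPM in MEF. The groups did not overlap, and LC was the highest. CiLC exceeded MEF 2.05-fold (log2 fold change 1.03 ± 0.25 SE, edgeR adjusted p = 0.000987). LC exceeded MEF 4.50-fold (log2 fold change 2.17 ± 0.23 SE, edgeR adjusted p = 4.24e-09). CiLC stood below LC, with a log2 fold change of -1.13 ± 0.19 SE (edgeR adjusted p = 9.42e-06). Its reads were few, at 56 and 58 in CiLC, 124 and 94 in LC and 26 and 28 in MEF.

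Bmp4 (12159) had 40.9 and 44.0 CPM in CiLC, 13.3 and 12.7 CPM in LC and 81.8 and 77.0 CPM in MEF. CiLC lay between the other groups, and no libraries of different groups overlapped. CiLC fell 1.87-fold below MEF (log2 fold change -0.90 ± 0.058 SE, edgeR adjusted p = 4.63e-12), and LC fell 6.12-fold below MEF (log2 fold change -2.61 ± 0.081 SE, edgeR adjusted p = 1.96e-19). CiLC exceeded LC 3.27-fold (log2 fold change 1.71 ± 0.084 SE, edgeR adjusted p = 4.09e-15). All 6 deposited values of Bmp4 were not whole, so the assignment of some of its reads to this gene is uncertain. In bulk RNA, fewer cells of a type and less RNA per cell cannot be told apart. The ratio of Bmp4 reads to Bmp2 reads was 14.3 and 15 in CiLC, 1.85 and 2.28 in LC and 60 and 52.8 in MEF. It is a ratio of reads, not of molecules, since the transcripts differ in length. Every CiLC library lay between the LC and the MEF libraries.

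Gdf10 (14560), also called BMP3b, encodes a ligand related to BMP3. It had 122 and 119 CPM in CiLC, no read and 1 read in LC, and 37.3 and 35.8 CPM in MEF. Both CiLC libraries were above both MEF libraries, and LC was at the limit of detection. CiLC exceeded MEF 3.30-fold (log2 fold change 1.72 ± 0.057 SE, edgeR adjusted p = 1.77e-17). Against the single read in LC, the ratio was 4123 for CiLC over LC, with a counting interval from 739.7 to 162900. For LC against MEF, the ratio of MEF over LC was 1251, with an interval from 224.1 to 49440. These are exact 95% binomial intervals and cover counting error only.

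Summed fibroblast markers had the same order as Bmp4, at 35100 to 35200 CPM in CiLC, 32400 to 33900 CPM in LC and 43900 to 45000 CPM in MEF, with none of the 8 genes at 0. Its members did not share that order: Col1a1, Col1a2 and Fn1 fell in CiLC against MEF, but Col3a1, Thy1, Pdgfra, Dcn and Lum rose, and the list's median log2 fold change was 1.18. Summed Leydig markers had the order of Bmp2, at 144 to 148 CPM in CiLC beside the LC and MEF values above, with Lhcgr at 0 in both CiLC libraries and Hsd3b6 at 0 in both MEF libraries. Of 8 Sertoli markers, Fshr was at 0 in both CiLC libraries, and Fshr and Rhox5 in both MEF libraries. That list also had the order of Bmp2, with a sum of 171 to 172 CPM in CiLC, 381 to 384 CPM in LC and 27.1 to 27.2 CPM in MEF. Inhbb alone gave 133 and 137 CPM of the CiLC sums and 81.6 and 80.4 CPM of the LC sums. Of 6 tested, 1 was higher in CiLC than in LC (Inhbb) and 5 were lower. Against MEF, 4 of the 6 rose in CiLC and all 6 rose in LC. The part of these markers in the ligand values was not tested.

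Of the antagonist genes, Grem1 and Bmper were both highest in CiLC, and Grem1 was undetected in LC. Grem1 (23892) encodes Gremlin 1, which binds BMP2 and BMP4 and keeps them from their receptors. It had 22.4 and 22.7 CPM in CiLC, 0 reads in both LC libraries, and 15.8 and 18.7 CPM in MEF. The CiLC libraries were above the MEF libraries by little more than the spread within MEF. CiLC exceeded MEF 1.30-fold (log2 fold change 0.38 ± 0.093 SE, edgeR adjusted p = 0.00154). Against a floor of 3 reads summed over both LC libraries, Grem1 was at least 257.4-fold higher in CiLC than in LC. By the same floor it was at least 197.3-fold lower in LC than in MEF (edgeR adjusted p = 1.25e-16).

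Bmper (73230) encodes a secreted BMP-binding protein that can dampen or strengthen the signal depending on context. It had 121 and 118 CPM in CiLC, 44.4 and 44.8 CPM in LC and 15.7 and 15.5 CPM in MEF. The groups were far apart, and replicates of a group differed by less than 3 CPM. CiLC exceeded MEF 7.66-fold, the largest difference of the 9 genes in that comparison (log2 fold change 2.94 ± 0.068 SE, edgeR adjusted p = 5.23e-21). LC exceeded MEF 2.86-fold (log2 fold change 1.52 ± 0.073 SE, edgeR adjusted p = 4.03e-15). CiLC exceeded LC 2.67-fold (log2 fold change 1.42 ± 0.054 SE, edgeR adjusted p = 6.27e-17).

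Summed macrophage markers had the order of Gdf10 and Grem1, highest in CiLC and lowest in LC, with none of the 12 genes at 0 in any library. Against MEF, however, 4 of the 12 rose in CiLC and 5 fell (Csf1r, C1qa, C1qb, C1qc and Cx3cr1), and Lyz2 alone gave 7485 and 7657 CPM of the CiLC sums and 2632 and 2688 CPM of the MEF sums. In LC against MEF 2 rose and 8 fell, and in CiLC against LC 11 were higher and 1 lower. Summed germ cell markers had the order of Bmper, at 6.06 to 6.74 CPM over 6 genes in CiLC, 2.61 to 3.24 CPM in LC and 2.24 to 2.25 CPM in MEF, with Tnp1 at 0 in both CiLC and both LC libraries. These are few reads, and of the 2 germ cell genes tested both rose in CiLC against MEF but neither was called between LC and MEF. The part of these markers in the Gdf10 and antagonist values was not tested.

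**Figure D2:**
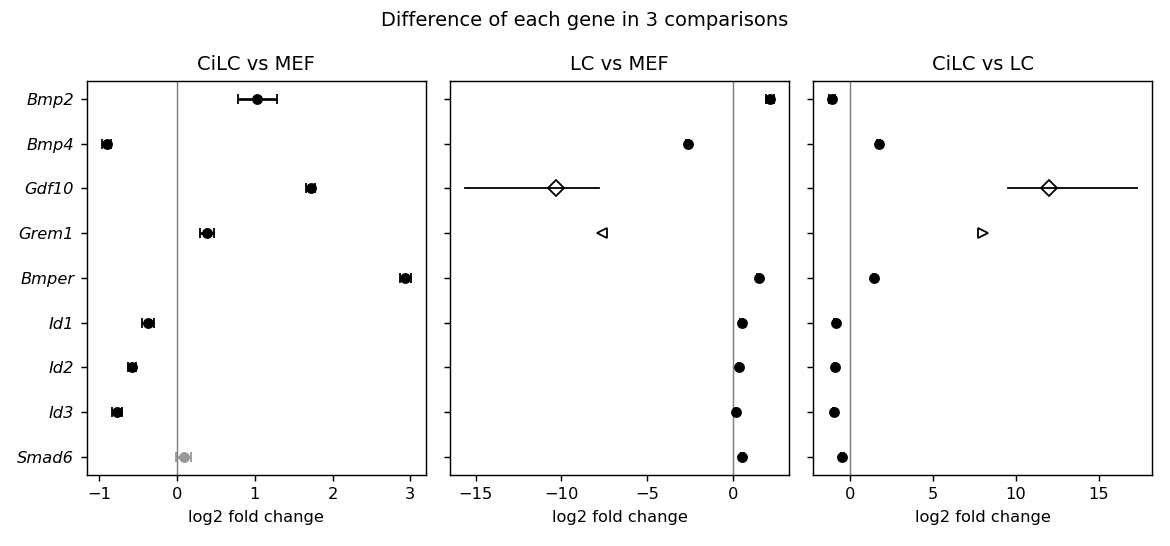
Log2 fold change of each gene (horizontal axis, with a wider range in the panels that involve LC) for CiLC over MEF, LC over MEF and CiLC over LC. Filled points are edgeR estimates with their SE, and grey marks a gene that was not called. Open diamonds are the Gdf10 read ratios with 95% counting intervals, and open triangles are the lower limits for Grem1. Bmper lies farthest right for CiLC over MEF, at 2.94, and Id1, Id2 and Id3 lie left of 0 there and for CiLC over LC.

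The Id genes moved together. All 3 fell in CiLC, both against MEF and against LC, and all 3 were highest in LC. Id1 (15901) had 18.4 and 21.0 CPM in CiLC, 38.7 and 34.8 CPM in LC and 25.9 and 25.2 CPM in MEF. Id2 (15902) had 74.7 and 81.0 CPM in CiLC, 154 and 147 CPM in LC and 116 and 117 CPM in MEF. Id3 (15903) had 46.9 and 52.1 CPM in CiLC, 99.4 and 94.1 CPM in LC and 83.3 and 85.9 CPM in MEF. In the scaled CPM of each of the 3 genes, both CiLC libraries lay below both MEF libraries, and both MEF libraries below both LC libraries. How many of all genes separated in this way was not counted. For Id3 the gap between MEF and LC depended on the scaling. With no scaling factor its log2 fold change for LC against MEF was 0.045 (edgeR adjusted p = 0.468). Calls were common, at 51.6% of all genes between CiLC and MEF and 70.7% between LC and MEF. The deposited Id3 values of both CiLC libraries were not whole.

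Against MEF, CiLC fell 1.30-fold for Id1 (log2 fold change -0.37 ± 0.082 SE, edgeR adjusted p = 0.00055). For Id2 the fall was 1.495-fold (log2 fold change -0.58 ± 0.053 SE, edgeR adjusted p = 2.7e-09). For Id3 it was 1.71-fold (log2 fold change -0.77 ± 0.059 SE, edgeR adjusted p = 1.08e-10). Against LC the log2 fold changes of CiLC were -0.90 ± 0.079 SE for Id1, -0.95 ± 0.053 SE for Id2 and -0.97 ± 0.059 SE for Id3 (edgeR adjusted p from 1.25e-13 to 5.96e-10). LC exceeded MEF 1.44-fold for Id1 (log2 fold change 0.53 ± 0.076 SE, edgeR adjusted p = 1.76e-06) and 1.29-fold for Id2 (log2 fold change 0.37 ± 0.051 SE, edgeR adjusted p = 8.34e-07). For Id3 the difference between LC and MEF was small, at a log2 fold change of 0.19 ± 0.055 SE (edgeR adjusted p = 0.00344). That call ended with quantile normalization (limma adjusted p = 0.192), with the upper quartile (edgeR adjusted p = 0.134), with no scaling factor (edgeR adjusted p = 0.468) and without LC replicate 1 (edgeR adjusted p = 0.0683). The promoters of Id2 and Id3, printed above, shared none of the searched motifs.

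Smad6 (17130) had 15.7 and 16.3 CPM in CiLC, 23.5 and 21.0 CPM in LC and 13.7 and 16.3 CPM in MEF. The CiLC libraries lay within the range of the MEF libraries, and both LC libraries lay above all others. CiLC and MEF were not called different (log2 fold change 0.087 ± 0.099 SE, edgeR adjusted p = 0.49), and the sign turned without MEF replicate 1, at -0.036. LC exceeded MEF 1.48-fold (log2 fold change 0.57 ± 0.096 SE, edgeR adjusted p = 1.55e-05). CiLC was below LC, with a log2 fold change of -0.48 ± 0.095 SE (edgeR adjusted p = 0.000101). Smad6 is the gene whose promoter window held GTCTAGAC.

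The summed endothelial markers had the order of the Id genes, although the single markers did not share it. Their sum over 11 genes was 13.6 to 13.7 CPM in CiLC, 75.9 to 84.9 CPM in LC and 32.4 to 32.7 CPM in MEF. Cdh5, which encodes VE-cadherin, gave 57.2 and 63.9 CPM of the LC sums, and Kdr gave 18.9 and 19.6 CPM of the MEF sums. Of 8 tested, Cdh5, Tek and Sox18 rose and Kdr, Emcn and Erg fell in CiLC against MEF. In LC against MEF 4 rose and 2 fell, and in CiLC against LC 1 was higher and 7 lower. Cldn5 and Sox17 were at 0 in both CiLC libraries, Sox17, after rounding, in both LC libraries and Tie1 in both MEF libraries. The summed chondrocyte and osteoblast markers had the same order, with a sum over 8 genes of 13.4 to 14.7 CPM in CiLC, 164 to 167 CPM in LC and 23.6 to 26.9 CPM in MEF. Of these, Col2a1, Matn1 and Bglap were at 0 in both LC libraries and Bglap in both MEF libraries. In LC against MEF, Acan, Sox9 and Alpl rose and Col2a1, Comp and Col10a1 fell, so these markers did not share the order of their sum. The part of these cells in the Id and Smad6 values was not tested.

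Counted together, 4 of the 9 genes rose and 4 fell in CiLC against MEF, and Smad6 was not called, where 26.1% of all genes were called higher and 25.5% lower. Changes of at least 2-fold were called for 3 of the 9 genes, all of them higher (Bmp2, Gdf10 and Bmper), against 12.2% of all genes in either direction. In LC against MEF the count at 2-fold was 2 higher (Bmp2 and Bmper) and 3 lower (Bmp4, Gdf10 and Grem1), against 27.2% of all genes, and in CiLC against LC it was 4 higher (Bmp4, Gdf10, Grem1 and Bmper) and 1 lower (Bmp2), against 25.4%. In CiLC against MEF the median absolute log2 fold change was 0.77 over the 9 genes and 0.25 over all genes tested. In LC against MEF, 6 rose and 3 fell (median absolute log2 fold change 1.52 over the 9 genes and 0.45 over all genes), where 35.7% of all genes were called higher and 35.0% lower. In CiLC against LC, 4 were higher and 5 lower (1.13 over the 9 genes and 0.44 over all genes), where 35.0% of all genes were called higher and 35.6% lower. The 9 genes were chosen with earlier results of these data known, so their medians are no test against all genes. The medians that involve LC count Gdf10 and Grem1, at 1 and 0 reads in LC. At a coefficient of variation of 0.4 between replicates, assumed for every gene in place of the fitted 3.16%, edgeR's likelihood ratio test called only Bmper among the 9 genes between CiLC and MEF. It then called Bmp2, Bmp4, Gdf10 and Grem1 between LC and MEF, and Bmp4, Gdf10 and Grem1 between CiLC and LC. At 0.1, Grem1 (edgeR adjusted p = 0.0601) and Id1 (edgeR adjusted p = 0.0641) lost their calls between CiLC and MEF, and Id3 (edgeR adjusted p = 0.278) lost its call between LC and MEF.

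**Figure D3:**
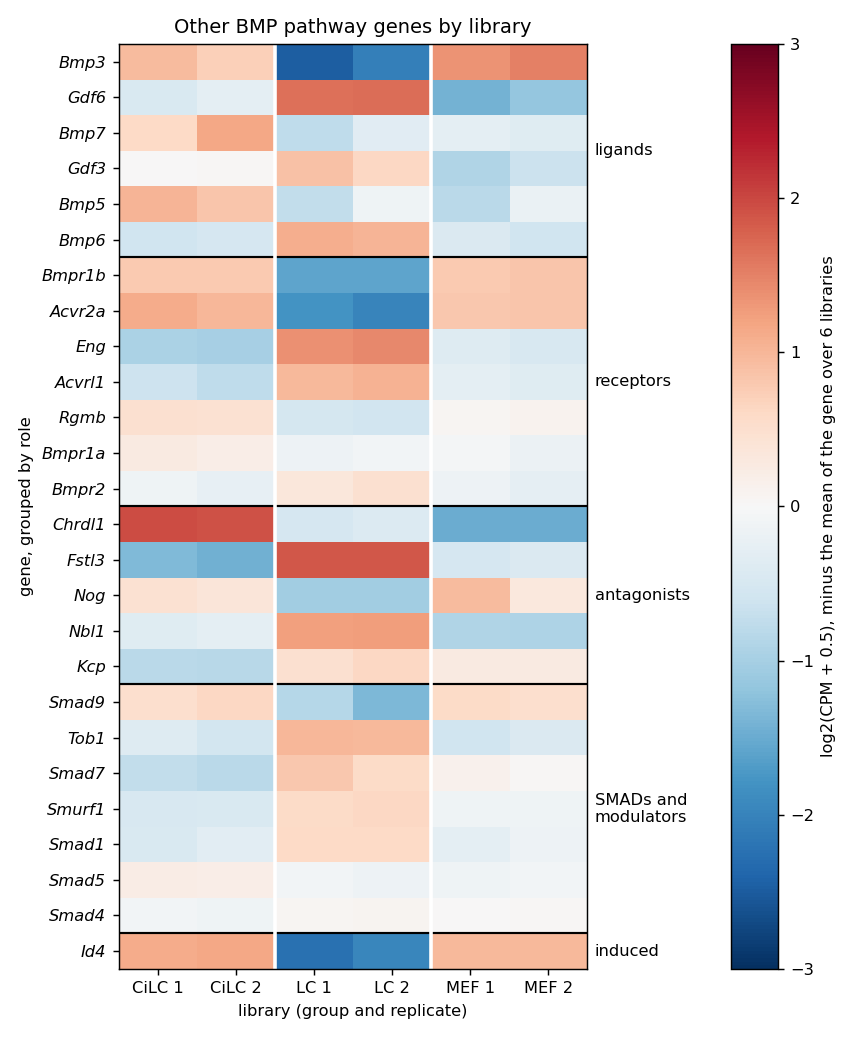
Other BMP pathway genes named in the text, by role (rows) and library (columns), as log2(CPM + 0.5) minus the mean of the gene over the 6 libraries. Red is above and blue is below that mean, and each gene is comparable only with itself. Acvr2a, Bmp3 and Id4 are blue in LC, and Fstl3, Eng, Gdf6 and Nbl1 are red there.

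The rest of the pathway was read from lists of 69 further symbols, of which 66 were in the tables and 53 passed the filter. Between CiLC and MEF 18 of the 53 were higher and 17 lower (median log2 fold change 0.016, against 0.0054 over all genes). Between LC and MEF 24 were higher and 19 lower, and between CiLC and LC 23 were higher and 22 lower. The shares called were 66%, 81.1% and 84.9%, against 51.6%, 70.7% and 70.6% over all genes. These lists too were chosen with earlier results of these data known, so the shares are no test of the pathway.

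Of 8 tested further ligands, 4 rose and 1 fell in CiLC against MEF, and 5 rose and 1 fell in LC against MEF. That is 62.5% and 75% called, where 51.6% and 70.7% of all genes were. Gdf6 averaged 5.16 CPM in CiLC, 22.9 CPM in LC and 2.53 CPM in MEF, and Bmp6 5.05, 16.5 and 5.22 CPM in the same order of groups. Gdf6 rose in both comparisons with MEF (log2 fold change 1.02 ± 0.17 SE for CiLC and 3.17 ± 0.15 SE for LC; edgeR adjusted p = 2.23e-05 and 3.96e-16). Bmp6 rose in LC (log2 fold change 1.66 ± 0.12 SE, edgeR adjusted p = 1.36e-11) and was not called between CiLC and MEF (edgeR adjusted p = 0.808). CiLC was below LC for Bmp6, with a log2 fold change of -1.70 ± 0.12 SE. Bmp5 and Bmp7 rose in CiLC, with 3.12 CPM in CiLC, 0.937 CPM in LC and 0.861 CPM in MEF for Bmp5, and 2.21, 0.498 and 0.653 CPM for Bmp7. Both exceeded LC too (log2 fold change 1.73 ± 0.35 SE for Bmp5 and 2.14 ± 0.44 SE for Bmp7). Bmp3, whose product can oppose other BMPs, averaged 8.41 CPM in CiLC, 0.556 CPM in LC and 12.9 CPM in MEF, and fell in both comparisons with MEF. Gdf3 rose in both as well, at 1.45 CPM in CiLC, 2.74 CPM in LC and 0.626 CPM in MEF, a CiLC call that ended without MEF replicate 1 (edgeR adjusted p = 0.0705).

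Among receptors, the type I receptor genes Bmpr1a and Acvrl1 and the type II receptor genes Bmpr2 and Acvr2a took different courses. Bmpr1a averaged 210 CPM in CiLC, 163 CPM in LC and 164 CPM in MEF, and rose in CiLC (log2 fold change 0.36 ± 0.051 SE, edgeR adjusted p = 2.68e-06). Bmpr2 averaged 199.7 CPM in CiLC, 303 CPM in LC and 197 CPM in MEF, and rose in LC (log2 fold change 0.62 ± 0.055 SE, edgeR adjusted p = 6.71e-10). Acvr2a, a receptor shared with activins, averaged 88.8 CPM in CiLC, 11.2 CPM in LC and 75.7 CPM in MEF. LC fell 6.74-fold below MEF for Acvr2a (log2 fold change -2.75 ± 0.086 SE, edgeR adjusted p = 1.79e-19). Bmpr1b averaged 3.56 CPM in CiLC, 0.292 CPM in LC and 3.63 CPM in MEF, and fell in LC (log2 fold change -3.61 ± 0.44 SE, edgeR adjusted p = 1.16e-09).

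Acvrl1 and Eng, a receptor and a co-receptor best known from endothelium, had the order of the Id genes. Acvrl1 averaged 34.7 CPM in CiLC, 114 CPM in LC and 44.7 CPM in MEF, and Eng 36.5, 193 and 53.2 CPM in the same order of groups. Against MEF, both fell in CiLC (log2 fold change -0.36 ± 0.066 SE for Acvrl1 and -0.54 ± 0.061 SE for Eng) and both rose in LC (1.35 ± 0.058 SE and 1.86 ± 0.053 SE; edgeR adjusted p at most 6.34e-05). The endothelial marker sums given above moved the same way, and their part was not tested. The co-receptor gene Rgmb averaged 72.4 CPM in CiLC, 35.2 CPM in LC and 54.7 CPM in MEF, and was 2.06-fold higher in CiLC than in LC. Of 10 receptors and co-receptors tested, 4 rose and 2 fell in CiLC against MEF, and 4 rose and 4 fell in LC against MEF. These calls made up 60% and 80% of the list, beside 51.6% and 70.7% of all genes.

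The genes on the list of further antagonists divided between the cultures. Being on this list does not make a product an antagonist, Kcp being a case in point. Whether each dampens or strengthens the BMP signal was not tested, so the counts below give no direction for the signal. Of 13 tested, 6 rose and 4 fell in CiLC against MEF, and 8 rose and 4 fell in LC against MEF. Those were 76.9% and 92.3% of the list, against 51.6% and 70.7% of all genes. Chrdl1, a chordin-like BMP binder, averaged 15.4 CPM in CiLC, 2.54 CPM in LC and 0.992 CPM in MEF. It rose 15.4-fold in CiLC against MEF (log2 fold change 3.95 ± 0.22 SE, edgeR adjusted p = 1.73e-15), more than any of the 9 genes.

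Nog, which encodes Noggin, averaged 3.10 CPM in CiLC, 0.818 CPM in LC and 3.79 CPM in MEF. It fell in LC (log2 fold change -2.20 ± 0.34 SE, edgeR adjusted p = 7.9e-07) and was not called between CiLC and MEF (edgeR adjusted p = 0.297), where its log2 fold change was -0.29 ± 0.22 SE, and 0.11 without MEF replicate 1. With MEF replicate 2 left out instead, Nog was called lower in CiLC, at -0.61 (edgeR adjusted p = 0.0383). Fstl3, Nbl1 and Kcp were higher in LC than in CiLC. Fstl3, which binds activins and some BMPs, averaged 14.9 CPM in CiLC, 145 CPM in LC and 28.7 CPM in MEF, with a log2 fold change of -3.28 ± 0.07 SE between CiLC and LC (edgeR adjusted p = 2.51e-22). Nbl1 averaged 72.5 CPM in CiLC, 216 CPM in LC and 48.0 CPM in MEF, and rose in both comparisons with MEF. Kcp averaged 20.3 CPM in CiLC, 53.3 CPM in LC and 43.8 CPM in MEF, and fell 2.15-fold in CiLC against MEF.

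Inside the cell, Smad1 averaged 21.8 CPM in CiLC, 43.4 CPM in LC and 24.3 CPM in MEF, and rose in LC (log2 fold change 0.84 ± 0.073 SE, edgeR adjusted p = 4.17e-10). It was called lower in CiLC than in MEF only without MEF replicate 1 (edgeR adjusted p = 0.0331). Smad9 went the other way, at 8.63 CPM in CiLC, 2.45 CPM in LC and 8.54 CPM in MEF, and fell in LC (log2 fold change -1.80 ± 0.19 SE, edgeR adjusted p = 2.73e-09). Smad5 averaged 88.2 CPM in CiLC, 70.1 CPM in LC and 70.9 CPM in MEF, and rose in CiLC (log2 fold change 0.32 ± 0.051 SE, edgeR adjusted p = 1.68e-05). Smad4, the shared partner, stayed within 1.13-fold in all comparisons, at 124 CPM in CiLC, 139.7 CPM in LC and 135 CPM in MEF. Its calls against CiLC (edgeR adjusted p = 0.0296 for MEF and 0.00266 for LC) ended with several other settings, DESeq2 among them for MEF (adjusted p = 0.0771). The inhibitory Smad7 averaged 12.7 CPM in CiLC, 36.1 CPM in LC and 23.3 CPM in MEF. It fell in CiLC against MEF (log2 fold change -0.87 ± 0.097 SE, edgeR adjusted p = 6.42e-08), and it rose in LC (log2 fold change 0.63 ± 0.083 SE, edgeR adjusted p = 3.78e-07). Smurf1, a ubiquitin ligase that acts on SMADs, averaged 56.6 CPM in CiLC, 118 CPM in LC and 71.6 CPM in MEF. Tob1, a repressor that binds SMADs, averaged 20.3 CPM in CiLC, 56.5 CPM in LC and 19.6 CPM in MEF, and rose in LC (log2 fold change 1.53 ± 0.073 SE, edgeR adjusted p = 3.91e-15). Of 12 SMADs and modulators, 2 rose and 6 fell in CiLC against MEF, and 4 rose and 4 fell in LC against MEF. Both shares called were 66.7%, where the shares over all genes were 51.6% and 70.7%.

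Id4, the remaining Id gene, did not follow Id1, Id2 and Id3. It had 14.1 and 14.7 CPM in CiLC, 0.928 and 1.24 CPM in LC and 12.8 and 12.7 CPM in MEF. LC, where the other Id genes were highest, fell 11.7-fold below MEF for Id4 (log2 fold change -3.55 ± 0.23 SE, edgeR adjusted p = 1.01e-14). CiLC and MEF were not called different (log2 fold change 0.18 ± 0.099 SE, edgeR adjusted p = 0.144), except with no scaling factor (edgeR adjusted p = 0.0444). Of 7 tested further genes that BMPs are known to induce, 1 rose and 3 fell in CiLC against MEF, and 3 rose and 3 fell in LC against MEF. Called were 57.1% and 85.7% of this list, beside 51.6% and 70.7% of all genes. The 3 E protein genes Tcf3, Tcf4 and Tcf12, whose products Id proteins bind, were all higher in CiLC than in LC by small amounts, with a median log2 fold change of 0.24 over the 3 genes. All 3 fell in LC against MEF, by a median of 0.37 on the log2 scale. Over all genes, 35.0% were called lower in LC than in MEF and 35.0% higher in CiLC than in LC. At an assumed coefficient of variation of 0.1, Tcf3 and Tcf4 lost their calls between CiLC and LC (edgeR adjusted p = 0.167 and 0.434). Tcf4 then also lost that between LC and MEF (edgeR adjusted p = 0.503), while Tcf12 kept its call in both comparisons (0.000534 and 0.0268). The call for Tcf4 between LC and MEF ended without LC replicate 1 (edgeR adjusted p = 0.0521), without LC replicate 2 (0.105) or without MEF replicate 2 (0.114), and that between CiLC and LC without CiLC replicate 1 (0.154) or LC replicate 2 (0.0585).

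**Figure D4:**
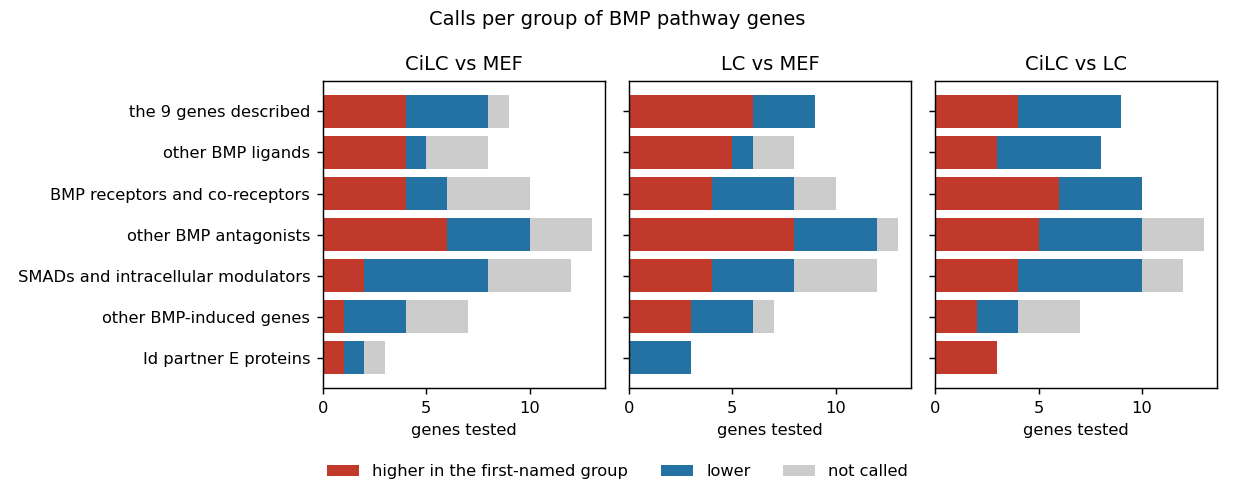
Number of tested genes (horizontal axis) in each group of BMP pathway genes that were higher, lower or not called in CiLC over MEF, LC over MEF and CiLC over LC, at an edgeR adjusted p of 0.05. Every group of genes holds both directions in CiLC over MEF, and the 3 E protein genes are all lower in LC than in MEF and all higher in CiLC than in LC.

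Genes with the pattern most like that of a member were named by the root mean square difference of centred log2(CPM + 0.5) over the 6 libraries, among 11390 other genes with a mean of at least 5 CPM. For Bmp4 they were Sulf1 (0.084), Gtse1 (0.091) and Otulinl (0.10). Sulf1, an extracellular sulfatase of heparan sulfate, averaged 188 CPM in CiLC, 57.8 CPM in LC and 362 CPM in MEF. For Grem1, Shox2 is given (0.23). For Id1 they were Odc1 (0.056), Psmd8 (0.070) and Glipr2 (0.070). Odc1, the ornithine decarboxylase gene, averaged 73.6 CPM in CiLC, 128 CPM in LC and 92.5 CPM in MEF.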

How the data were processed

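RNA of 6 libraries, grouped by their titles, was sequenced. Expected counts, the reads estimated for each NCBI gene number, were deposited by the authors. They aligned reads with HISAT to mm9, per the submitters' processing notes. How reads were counted, with which annotation and strand, is not given in the sources used here. Overlapping and antisense genes are therefore uncertain. Between 32.4% and 32.8% of the values of a library were not whole. Symbols were found in a RefSeq table (GRCm38.p6) for 18179 of 18305 gene numbers, and the 126 others held 0.164% to 0.259% of a library's reads.

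Counts were rounded, filtered with filterByExpr (minimum count 10, minimum total 15; 14581 genes kept) and scaled by TMM in edgeR 4.0.16 under R 4.3.3. All 6 libraries entered 1 quasi-likelihood fit (glmQLFit, glmQLFTest) with group as its term, and p-values were adjusted by Benjamini-Hochberg over all genes tested. The prior count of the log2 fold changes was 0.125. The procedure was tested on simulated data. These used the spread fitted to the same libraries, which may be technical only. Replicates differed by more than sampling noise (chi-square per degree of freedom 1.80 for CiLC, 2.94 for LC and 2.77 for MEF), and each library was counted as 1 sample. Groups at 0 reads were set at a floor of 3 reads per group, and 1 to 3 reads give a ratio with a counting interval.

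The members and lists were chosen with earlier results of these data known. All 9 members are named. Of the wider lists, Bmpr1a, Bmpr2, Smad1, Smad5, Smad9 and Smad4 are named, with up to 6 genes per list called at 2-fold in any comparison and averaging at least 1 CPM, in order of size. For Bmp4, Grem1 and Id1 the 3 most similar genes over the libraries are named. Some genes that this rule names are not reported here. Alternatives were DESeq2 1.42.0, limma 3.58.1 with quantile normalization, other scalings, filters, assumed spreads, a replicate block, only the 4 libraries compared and leaving out each library.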

Additional observations from a re-analysis of the deposited data

How the results depend on the processing

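Over all alternatives, 430 values of the 9 genes kept their direction and their side of the threshold, 25 lost a call and 1 reversed: Smad6 between CiLC and MEF without MEF replicate 1 (log2 fold change -0.036, against 0.22 without MEF replicate 2). With an assumed coefficient of variation of 0.1, the calls between CiLC and MEF fell to 4205 genes over all and 22 of the wider BMP genes, against 7529 and 35. The wider genes that lost this call included Bmpr1a (edgeR adjusted p = 0.0502), Acvrl1 (0.0588), Smurf1 (0.0767), Smad5 (0.101), Acvr2a (0.266) and Smad4 (0.591). With 0.4, calls between CiLC and MEF were 675 over all genes, 1 of the 9 and 3 of the wider genes. Between LC and MEF they were then 2508, 4 and 17, and between CiLC and LC 2251, 3 and 17. Leaving out single libraries gave 6127 to 7437, 9411 to 10314 and 9333 to 10488 calls over all genes in the order CiLC against MEF, LC against MEF and CiLC against LC. The 9 genes then gave 8, 8 to 9 and 9 calls. With no scaling factor, chosen after seeing the data, the median of all genes moved by -0.148 on the log2 scale for LC against MEF and by 0.215 for CiLC against LC. Higher genes then made up 61.1%, 38.7% and 66.3% of the calls in the 3 comparisons, against 50.6%, 50.5% and 49.6%. With the upper quartile, also chosen after seeing the data, the shift was -0.1 for LC against MEF. In a fit with a replicate block, 7505, 10294 and 10290 genes were called, and 8, 9 and 9 of the 9 genes. The numbers mark no known pairing: the correlation of replicate differences across genes was 0.096 for CiLC and MEF, 0.014 for LC and MEF and -0.079 for CiLC and LC.

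Among the wider genes named in the text, some log2 fold changes reversed. Listed values that keep the sign of the main fit are given for contrast with the other replicate of the group. In the main fit between CiLC and MEF, Bmp6, Bmpr1b and Nog were negative, and Bmpr2, Smad9, Tob1 and Tcf4 positive. Between LC and MEF, Bmp5 and Smad4 were positive there, and Bmpr1a and Smad5 negative. Smad4 was negative between CiLC and LC. Between CiLC and MEF, this was so for Bmp6 (0.019 with no scaling factor, 0.044 and -0.14 without MEF replicates 1 and 2), Bmpr1b (0.037 with no scaling factor), Bmpr2 (-0.042 and 0.072 without CiLC replicates 1 and 2, -0.031 without MEF replicate 2) and Nog (0.11 and -0.61 without MEF replicates 1 and 2). It was also so for Smad9 (-0.020 with quantile normalization, 0.077 and -0.051 without CiLC replicates 1 and 2, -0.028 without MEF replicate 2), Tob1 (-0.025 without CiLC replicate 1, -0.029 and 0.14 without MEF replicates 1 and 2), and for Tcf4 (-0.028 without CiLC replicate 1, -0.0048 without MEF replicate 1). Between LC and MEF, Bmp5 reversed (-0.036 with quantile normalization, -0.030 with no scaling factor, -0.30 and 0.69 without MEF replicates 1 and 2, -0.43 without LC replicate 2), as did Bmpr1a (0.043 and -0.068 without MEF replicates 1 and 2, 0.027 without LC replicate 1), Smad5 (0.0023 without MEF replicate 2, -0.050 and 0.018 without LC replicates 1 and 2) and Smad4 (-0.095 with quantile normalization, -0.10 with no scaling factor, -0.054 with the upper quartile). Other scalings instead turned Bmpr1a and Smad5 into calls of lower in LC than in MEF. With quantile normalization they were at -0.19 and -0.12 (limma adjusted p = 0.00427 and 0.0401). With no scaling factor both were at -0.16 (edgeR adjusted p = 0.00938 and 0.0085). Between CiLC and LC, Smad4 reversed (0.0010 with quantile normalization, 0.042 with no scaling factor). The cause was not tested.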
